A study of Homo sapiens with 8 samples.

Results

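The epithelial to mesenchymal transition (EMT) is described here through 10 genes in HGC27 cells, an established human line of undifferentiated gastric carcinoma that the labels give as having no p53. The genes are the transcription factors TWIST1, TWIST2, SNAI1, SNAI2, ZEB1 and ZEB2, the mesenchymal markers VIM, THY1 and CDH2, and the epithelial marker CDH1. They were set as a list of gene names, with no threshold on a measured value but with earlier results of these data known, and all 10 were found among the 25435 gene symbols of the count table. Of these 10, 7 passed the filter on low counts that left 13213 genes for testing. TWIST2, CDH1 and CDH2 did not pass it.

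HGC27 cells carried an overexpressed green fluorescent protein (GFP) or 1 of the p53 mutants R175H, R248Q and R273H, with 2 libraries in each of the 4 groups and 8 in all. The series title speaks of p53 KO and KD, while the sample labels give overexpression, and the labels were followed. The GFP cells are the control, and no group carried wild-type p53. The labels name neither the vector or promoter nor whether the cells were a clone or a pool, and they do not say that the 2 libraries of a group came from separate cultures, so the p-values measure only the spread between these libraries.

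In EMT, cells that adhere in a sheet lose E-cadherin and keratins and gain vimentin, N-cadherin and motility. The SNAI, ZEB and TWIST factors bind E-box sequences and are best known for repressing CDH1, which encodes E-cadherin. In gastric cancer, loss of E-cadherin is a feature of diffuse and undifferentiated tumours. The ZEB genes are held down in epithelial cells by the microRNAs of the miR-200 family, which ZEB1 and ZEB2 repress in turn.

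The miR-200 family is shown because its sequences define the sites by which the ZEB messages are known to be restrained. The mature sequences below are from RefSeq (GRCh38.p14), 5′ to 3′, with the seed (bases 2 to 8) in capitals. miR-200b, miR-200c and miR-429 share 1 seed, and miR-200a and miR-141 share the other.
miR-200b-3p: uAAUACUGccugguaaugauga
miR-200c-3p: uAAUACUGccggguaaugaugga
miR-429: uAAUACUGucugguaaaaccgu
miR-200a-3p: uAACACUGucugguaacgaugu
miR-141-3p: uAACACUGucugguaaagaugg
The first match to the AAUACUG seed in the 3′ untranslated region of each ZEB transcript (GENCODE 29) is given with the 7 matching bases in capitals, at positions 354 to 376 of the region in ZEB1 and 377 to 399 in ZEB2.
ZEB1 site: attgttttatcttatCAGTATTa
ZEB2 site: cgcactaccatacatCAGTATTt
The ZEB1 region (2549 nt) held CAGTATT 6 times and CAGTGTT 3 times. The ZEB2 region (5370 nt) held them 5 and 4 times. At least 1 CAGTATT was present in the same region of 15.4% of 19343 genes, and at least 1 CAGTGTT in 17.4%. A match is a description of the letters and not evidence of repression in these cells. The rows for MIR200A, MIR200B, MIR200C, MIR141, MIR429 and MIR205 were at 0 in each of the 8 libraries, but libraries made from mRNA do not hold mature microRNAs.

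Promoter letters are shown for VIM and ZEB2, which with TWIST1 were the members higher in R175H cells than in GFP cells. The 250 bases before the annotated start of each gene are from RefSeq (GRCh38.p14), with motif matches in capitals. All motifs were searched on both strands. The E-box was searched as CANNTG. Its form bound by SNAI and ZEB factors, which also counts as an E-box, was searched as CACCTG. The core of the hypoxia response element was searched as ACGTG. The other common form of that core was searched as GCGTG. The GC box bound by SP1 was searched as GGGCGG.
VIM, chr10:17227991-17228240, plus strand: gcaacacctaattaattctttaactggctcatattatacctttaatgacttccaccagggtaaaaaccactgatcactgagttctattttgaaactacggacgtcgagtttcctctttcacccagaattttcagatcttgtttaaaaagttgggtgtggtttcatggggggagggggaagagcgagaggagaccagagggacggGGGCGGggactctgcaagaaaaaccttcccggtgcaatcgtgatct
ZEB2, chr2:144520120-144520369, minus strand: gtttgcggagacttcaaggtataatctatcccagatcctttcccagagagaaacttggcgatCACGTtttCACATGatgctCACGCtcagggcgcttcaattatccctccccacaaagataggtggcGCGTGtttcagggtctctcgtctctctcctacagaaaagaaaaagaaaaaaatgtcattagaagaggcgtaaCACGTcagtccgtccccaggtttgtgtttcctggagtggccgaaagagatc
The VIM window held 1 GC box and no E-box. The ZEB2 window held 1 E-box, the first hypoxia core 2 times and the second 2 times, and no GC box. Of 35116 windows of 250 bases before gene starts, 61.8% held an E-box, 17.5% its CACCTG form, 18.5% the first hypoxia core, 32.2% the second and 42.6% a GC box.

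Library totals ran from 6800463 counts in R175H replicate 1 to 11788035 in R273H replicate 2. Levels are given in CPM (counts scaled to a fixed library total) adjusted by TMM, a normalisation that evens out composition. Between the GFP libraries the chi-square per degree of freedom was 5.72, against 1.21 to 1.60 within the other groups. Part of that difference followed transcript length. The 864 better-expressed genes of at least 8000 nt had a median deviation of -0.28 (log2) in GFP replicate 1 and -0.04 in GFP replicate 2. It was 0.14 and 0.13 in the R248Q libraries, and -0.03 to 0.04 in those of R175H and R273H.

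The 10 genes spanned the range from among the most abundant messages to single counts. Per kilobase of transcript, VIM averaged 2720.0 CPM and ranked 4 of 12334 tested genes with a length, and TWIST1 averaged 253 CPM and ranked 230. A middle set followed, with THY1 at 11.6, SNAI1 at 10.8, ZEB1 at 9.23, SNAI2 at 7.83 and ZEB2 at 4.03 CPM per kilobase. CDH2 at 0.116, TWIST2 at 0.0551 and CDH1 at 0.0181 CPM per kilobase were the lowest, with no library above 10 counts. Neighbours in this order had overlapping library ranges from THY1 through SNAI1 and ZEB1 to SNAI2, and again from CDH2 through TWIST2 to CDH1. VIM, TWIST1, ZEB2 and the low set were each set apart from their neighbours in each of the 8 libraries. VIM alone took 0.464% to 0.571% of a library's counts.

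**Figure D1:**
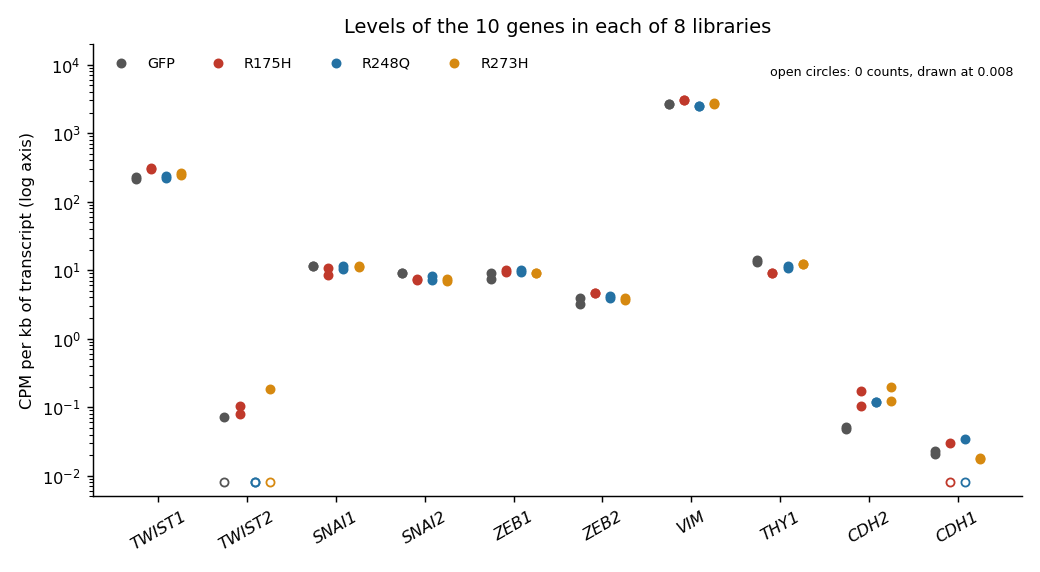
Level of each of the 10 genes in each of 8 libraries, in TMM-scaled CPM per kilobase of transcript on a log axis, coloured by group, with open circles for 0 counts. VIM (mean 2720.0) and TWIST1 (mean 253) stand above the other factors, and TWIST2, CDH2 and CDH1 lie below 1.

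Against GFP, R175H cells had more TWIST1, VIM and ZEB2 message and less THY1. R248Q cells had less THY1 and R273H cells had no member past the threshold. In R175H cells 3 members rose and 1 fell, where 6.39% of all tested genes rose and 4.59% fell. Changes were tested with edgeR's quasi-likelihood test over all 13213 genes, with Benjamini-Hochberg adjustment and a threshold of 0.05. The 3 comparisons with GFP share the same 2 control libraries.

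TWIST1, a basic helix-loop-helix factor of mesoderm and neural crest, was the most abundant of the 6 factors. It stood at 388 and 359 CPM in the GFP libraries, 517 and 495 with R175H, 375 and 395 with R248Q, and 403 and 437 with R273H. Both R175H libraries were above the 6 others, and the R248Q libraries overlapped the GFP range. TWIST1 rose in R175H by 35.5%, a log2 difference of 0.44 ± 0.06 (SE, adjusted p = 0.00025, edgeR). R175H averaged 506 ± 15.7 CPM (SD, n = 2) and GFP 373 ± 20.5. In R248Q the difference from GFP was 0.04 ± 0.06 (adjusted p = 0.71, edgeR), with a 95% interval of -0.08 to 0.17. In R273H it was 0.17 ± 0.06 (adjusted p = 0.23, edgeR). Without GFP replicate 1 the R273H difference was 0.23, and without GFP replicate 2 it was 0.12. After a correction for transcript length, with all 8 libraries, it was 0.22 and called (adjusted p = 0.0046, edgeR). That correction called 306 genes over the whole table, against 133 without it. DESeq2 and limma-voom did not call TWIST1 in R273H. The rise in R175H kept its call in each of 17 alternative analyses, with values of 0.38 to 0.49.

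TWIST2, the close relative of TWIST1, was counted 1 and 0 times in GFP, 1 and 1 with R175H, 0 and 0 with R248Q, and 0 and 3 with R273H. No library exceeded 3 counts, taken here as the floor of detection, which equals 0.256 to 0.443 CPM depending on the library. No group difference could be read at this depth.

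SNAI1, which encodes Snail, was at 19.1 and 19.3 CPM in GFP, 14.2 and 18.3 with R175H, 17.6 and 19.5 with R248Q, and 19.6 and 18.6 with R273H. R175H replicate 1 was the lowest library, and the R248Q and R273H ranges overlapped GFP. Its log2 differences from GFP were -0.22 ± 0.13 in R175H, -0.05 ± 0.12 in R248Q and -0.01 ± 0.12 in R273H (adjusted p = 0.30, 0.85 and 0.99, edgeR).

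SNAI2, which encodes Slug, was at 22.1 CPM in both GFP libraries, 17.9 and 17.5 with R175H, 19.9 and 17.5 with R248Q, and 17.1 and 18.1 with R273H. All 6 mutant libraries were below both GFP libraries. The log2 differences were -0.32 ± 0.11 in R175H, -0.24 ± 0.11 in R248Q and -0.33 ± 0.11 in R273H. None passed the threshold (adjusted p = 0.084, 0.19 and 0.19, edgeR). Between pairs of mutants the SNAI2 differences lay between -0.09 and 0.08.

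ZEB1, a zinc finger and homeodomain repressor, was at 46.3 and 57.2 CPM in GFP, 63.7 and 59.3 with R175H, 63.1 and 58.1 with R248Q, and 57.0 and 58.0 with R273H. GFP replicate 1 was the lowest library, and 5 of 6 mutant libraries were above both GFP libraries. The differences from GFP were 0.25 ± 0.10, 0.23 ± 0.09 and 0.15 ± 0.09 in R175H, R248Q and R273H (adjusted p = 0.11, 0.15 and 0.52, edgeR). These values depended on which GFP library was kept. Without GFP replicate 2 they were 0.41, 0.39 and 0.31. Without GFP replicate 1 they were 0.10, 0.08 and 0.01.

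ZEB2, its paralog, was at 30.5 and 38.1 CPM in GFP, 44.6 and 44.8 with R175H, 40.1 and 37.4 with R248Q, and 38.1 and 35.5 with R273H. Both R175H libraries were above the 6 others, while the R248Q and R273H ranges overlapped GFP. ZEB2 rose in R175H by 0.38 ± 0.10 (log2, adjusted p = 0.026, edgeR), from 34.3 ± 5.39 to 44.7 ± 0.135 CPM (SD, n = 2). It differed from GFP by 0.18 ± 0.10 in R248Q and 0.10 ± 0.10 in R273H (adjusted p = 0.30 and 0.72, edgeR). The R175H call was kept in 9 of 17 alternatives. It was 0.23 without GFP replicate 1 (adjusted p = 0.16, edgeR), 0.55 without GFP replicate 2 (adjusted p = 4.5e-05, edgeR) and 0.22 after a correction for transcript length (adjusted p = 0.079, edgeR). It was also lost without R175H replicate 1 (0.39, adjusted p = 0.13) or 2 (0.38, adjusted p = 0.14). The ZEB2 transcript is the longest of the 10, at 9583 nt. The antisense rows ZEB1-AS1 (34 to 73 counts) and ZEB2-AS1 (6 to 20 counts) were called in none of the 6 comparisons.

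**Figure D2:**
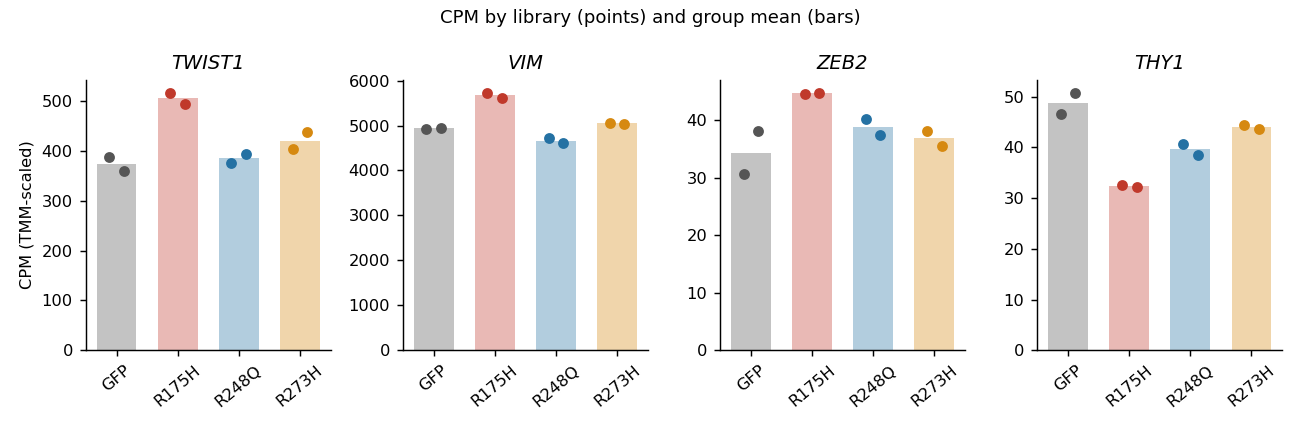
TMM-scaled CPM of TWIST1, VIM, ZEB2 and THY1, the members called in at least 1 comparison, with a point for each library and a bar for the mean of 2 libraries, and axes that start at 0. R175H is the highest group for the first 3 genes and the lowest for THY1 (32.4 CPM against 48.7 in GFP).

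VIM encodes vimentin, the intermediate filament of mesenchymal cells. It was at 4932 and 4951 CPM in GFP, 5733 and 5615 with R175H, 4713 and 4612 with R248Q, and 5063 and 5029 with R273H. No 2 groups overlapped: R175H was the highest, then R273H, then GFP, with R248Q the lowest. VIM rose in R175H by 14.8%, or 0.20 ± 0.04 on the log2 scale (adjusted p = 0.0089, edgeR). In R248Q it differed from GFP by -0.08 ± 0.04 (adjusted p = 0.28, edgeR) and in R273H by 0.03 ± 0.04 (adjusted p = 0.82, edgeR). The R175H call was lost without R175H replicate 1 (0.18, adjusted p = 0.096, edgeR) and in a fit of the R175H and GFP libraries alone (0.19, adjusted p = 0.24, edgeR).

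VIM has an antisense neighbour, VIM-AS1, with a row of its own. VIM-AS1 was counted 18760 to 28029 times, equal to 42.8% of the VIM count in GFP replicate 1 and 47.0% to 48.3% in the other 7 libraries. Its difference in R175H was 0.27 ± 0.06 (adjusted p = 0.0050, edgeR). Whether the counting used strand is not stated here, so reads of VIM and of VIM-AS1 cannot be told apart. With both rows summed, an analysis added after the data were seen, the R175H difference was 0.22 ± 0.05 (adjusted p = 0.0048, edgeR).

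THY1 encodes CD90, a surface glycoprotein of fibroblasts and mesenchymal stem cells. It was at 46.6 and 50.8 CPM in GFP, 32.6 and 32.2 with R175H, 40.6 and 38.6 with R248Q, and 44.4 and 43.5 with R273H. All 6 mutant libraries were below both GFP libraries, and no 2 groups overlapped. THY1 fell in R175H by 33.4%, a log2 difference of -0.59 ± 0.09 (adjusted p = 0.00047, edgeR), from 48.7 ± 2.99 to 32.4 ± 0.296 CPM (SD, n = 2). It also fell in R248Q, by -0.30 ± 0.08 (adjusted p = 0.036, edgeR). In R273H the difference was -0.15 ± 0.08 (adjusted p = 0.47, edgeR). The R175H value kept its call in each of 17 alternatives, between -0.65 and -0.52. The R248Q call was kept in 7 of 17, and its values lay between -0.36 and -0.23. It was lost without GFP replicate 2 (-0.23, adjusted p = 0.055) and without any 1 library of the mutant groups (-0.33 to -0.25, with adjusted p up to 0.29, edgeR).

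E-cadherin and N-cadherin messages were close to absent in each of the 8 libraries. CDH1, the E-cadherin gene, was counted 1 and 1 times in GFP, 1 and 0 with R175H, 0 and 2 with R248Q, and 1 and 1 with R273H. No library passed the floor of 3 counts, so neither a loss nor a gain between groups was detectable. CDH2, the N-cadherin gene that mesenchymal cells often carry in its place, was counted 2 and 2 times in GFP, 5 and 4 with R175H, 6 and 6 with R248Q, and 6 and 10 with R273H. All 6 mutant libraries had more counts than either GFP library. The ratio to GFP of summed counts over library totals was 2.69 in R175H (95% exact interval 0.750 to 11.9), 2.40 in R248Q (0.728 to 10.2) and 3.27 in R273H (1.05 to 13.4). These intervals cover counting error only. With the filter removed, the CDH2 differences had adjusted p of 0.48, 0.57 and 0.48 (edgeR) for the 3 mutants.

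**Figure D3:**
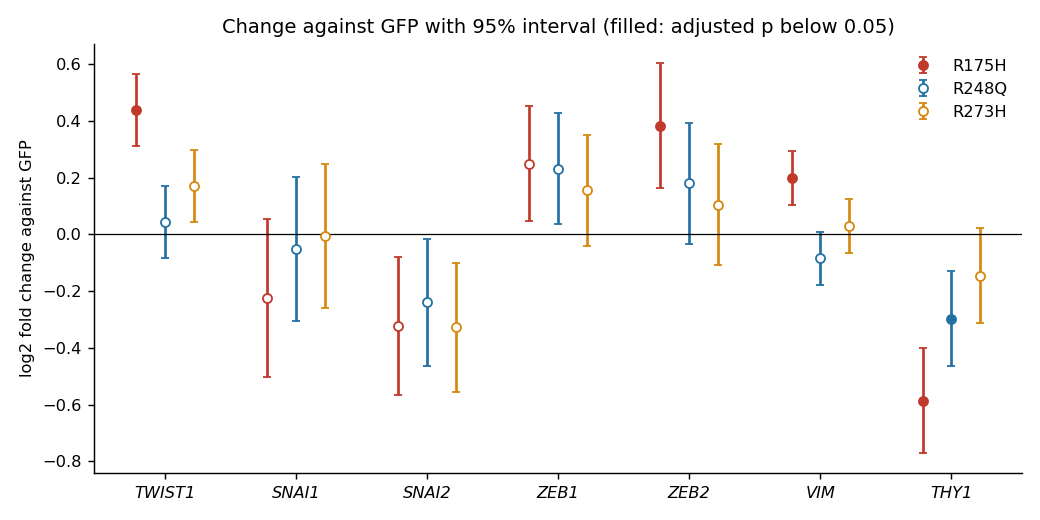
Log2 difference from GFP with its 95% interval for the 7 tested members in R175H, R248Q and R273H, with filled points at an adjusted p below 0.05. TWIST1, ZEB2 and VIM in R175H lie above 0, and THY1 lies below 0 in R175H and R248Q.

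Counted over the 7 tested members, none of which passed the filter through 1 high group alone, the calls were as follows for the other 2 mutants. In R248Q 1 member fell and 0 rose, where 1.44% of tested genes fell and 4.88% rose. In R273H 0 were called, where 0.757% of tested genes rose and 0.250% fell, with 2 members at an unadjusted p below 0.05, and DESeq2 and limma-voom also called 0. The median log2 difference of the members was 0.20 in R175H, -0.05 in R248Q and 0.03 in R273H, beside 0.01, -0.01 and 0.00 for all tested genes. The libraries of R175H and GFP did not overlap for 7 of 7 members, where 51.1% of tested genes did not overlap. That count was 4 of 7 in R248Q (50.5%) and 4 of 7 in R273H (39.5%). When the test asked for any difference among the 4 groups, TWIST1, VIM and THY1 were called (adjusted p = 0.00052, 0.0029 and 0.0018, edgeR), where 10.6% of genes were, and ZEB2 was not (adjusted p = 0.086, edgeR).

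The mutants were then compared with each other, which uses no GFP library in the difference itself. TWIST1 was lower in R248Q than in R175H by -0.39 ± 0.06 (adjusted p = 0.00065, edgeR), and lower in R273H than in R175H by -0.27 ± 0.06 (adjusted p = 0.019, edgeR). VIM was lower in R248Q by -0.28 ± 0.04 (adjusted p = 0.00084, edgeR) and in R273H by -0.17 ± 0.04 (adjusted p = 0.045, edgeR). Both genes were thus lower in these 2 mutants than in R175H. THY1 went the other way and was higher in R273H than in R175H by 0.44 ± 0.09 (adjusted p = 0.0080, edgeR). Its difference in R248Q was 0.29 ± 0.09 (adjusted p = 0.056, edgeR).

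In R248Q against R175H 2 of 7 members were lower and 0 higher, where 3.95% of tested genes were lower and 3.22% higher. In R273H against R175H 2 were lower and 1 higher, where 2.22% of tested genes were lower and 1.41% higher. The libraries of the 2 mutants did not overlap for 4 of 7 members in the first of these comparisons (55.9% of tested genes) and for 6 of 7 in the second (51.3%). ZEB2 differed by -0.20 ± 0.10 and -0.28 ± 0.10 in these comparisons (adjusted p = 0.24 and 0.15, edgeR), and by the same -0.20 and -0.28 without GFP replicate 1 or 2. After length correction both differences passed the threshold, at -0.32 (adjusted p = 0.0090, edgeR) and -0.26 (adjusted p = 0.042, edgeR). That correction called 1562 and 1090 genes over the whole table, against 947 and 479 without it. A fit of only R273H and R175H also called ZEB2 (-0.28, adjusted p = 0.026, edgeR), with 1354 genes called over the whole table. SNAI1, SNAI2 and ZEB1 were not called in either comparison. The TWIST1 difference between R248Q and R175H was called in each of 17 alternatives. That of VIM was lost without R248Q replicate 2 (-0.26, adjusted p = 0.076). THY1 in R248Q against R175H was also 0.29 without GFP replicate 1 or 2. A fit of only these 2 groups called it (0.29, adjusted p = 0.0091, edgeR), with 2573 genes called over the whole table. Length correction called it too (0.30, adjusted p = 0.021, edgeR).

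The R273H calls against R175H were less steady. TWIST1 lost its call without any 1 library of a mutant group (-0.33 to -0.21), as did VIM (-0.18 to -0.15). With all 8 libraries, VIM was -0.17 and not called by DESeq2 (adjusted p = 0.072, DESeq2). It was also -0.17 and not called with DESeq2 size factors (adjusted p = 0.054, edgeR) or a replicate block (adjusted p = 0.11, edgeR). The block also took the call from TWIST1 (-0.27, adjusted p = 0.054, edgeR). THY1 lost its call without either R175H or either R273H library (0.43 to 0.45, adjusted p up to 0.12). Between R273H and R248Q 0 members were called, where 0.00757% of tested genes were higher in R273H and 0.144% lower, with 1 at an unadjusted p below 0.05, and DESeq2 and limma-voom also called 0. The libraries did not overlap for 4 of 7 members (46.6% of tested genes). The VIM difference between these 2 mutants was 0.11 and that of TWIST1 0.13, with all 8 libraries and also without GFP replicate 1 or 2. A fit of only these 2 groups called both (VIM adjusted p = 2.0e-05, TWIST1 adjusted p = 0.0037, edgeR). That fit called 816 genes over the whole table, against 20 with all 8 libraries.

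In a bulk library, a change in the share of cells with a message and a change in message per cell cannot be told apart.

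**Figure D4:**
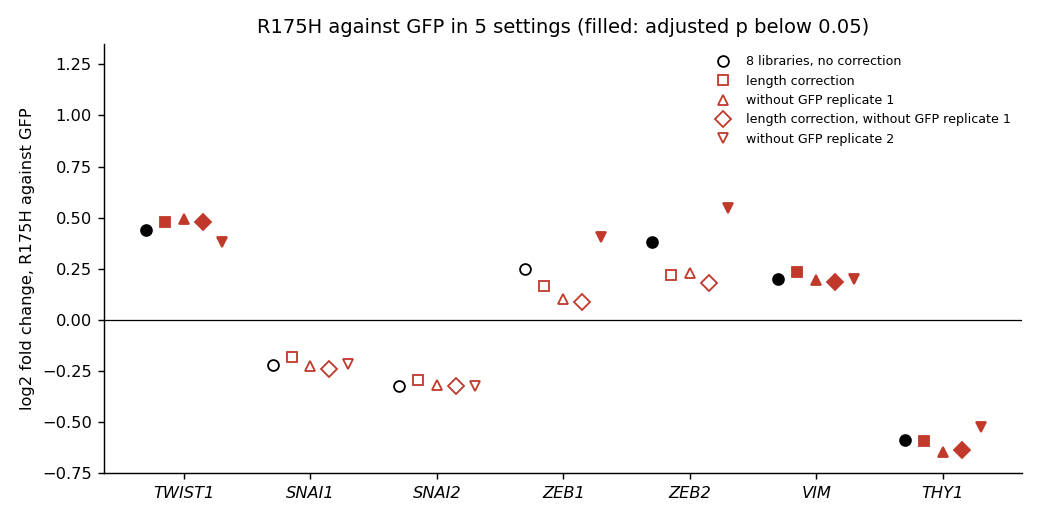
Log2 difference between R175H and GFP for the 7 tested members in 5 settings: all 8 libraries, length correction, without GFP replicate 1, both together, and without GFP replicate 2, with filled symbols at an adjusted p below 0.05. TWIST1, VIM and THY1 stay filled in all 5, while ZEB2 runs from 0.18 to 0.55 and ZEB1 from 0.09 to 0.41.

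Of 20 other cadherins listed, CDH6 and CDH24 had the highest levels, at 19.3 and 18.7 CPM per kilobase, and CDH10 (69 to 134 counts) was the other one with a mean of at least 10 CPM. In all 13 of the 20 averaged below 1 CPM. CDH6, K-cadherin, was at 168 and 180 CPM in GFP, 131 and 126 with R175H, 186 and 182 with R248Q, and 170 and 167 with R273H. Both R175H libraries were below the 6 others. CDH6 fell in R175H by -0.44 ± 0.06 (log2, adjusted p = 0.00026, edgeR), with a call kept in each of 17 alternatives. It was the 1 called gene of 7 tested cadherins in that comparison, where 4.59% of all tested genes fell and 6.39% rose. Of the catenins and cadherin partners, alpha-catenin (CTNNA1, 92.1 CPM per kilobase) and beta-catenin (CTNNB1, 40.9) were abundant. The row for p120-catenin (CTNND1) held only 13 to 35 counts. A further row that carries its name, TMX2-CTNND1, held 0 counts. How reads shared by 2 rows were counted is not given, so the CTNND1 row may not give the level of the gene. Among 10 tested partners 0 were called in R175H or R273H by edgeR, DESeq2 or limma-voom, with 3 at an unadjusted p below 0.05 in each. Of all tested genes, 6.39% rose and 4.59% fell in R175H by edgeR, and 0.757% rose and 0.250% fell in R273H. MLLT4, which encodes the junction protein afadin, rose in R248Q by 0.62 ± 0.14 (adjusted p = 0.013, edgeR). That call was lost without GFP replicate 1 (0.53, adjusted p = 0.062) and without R248Q replicate 1 (0.60, adjusted p = 0.12) or 2 (0.65, adjusted p = 0.085).

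Epithelial genes were unevenly expressed. Of 30 listed epithelial markers 17 averaged below 1 CPM, including the keratins KRT18 (0 or 1 count) and KRT19 (0 to 2 counts) and the adhesion molecule EPCAM (1 to 3 counts). Another 5 averaged at least 10 CPM, among them the desmosomal cadherin DSG2 (139 CPM) and the tight junction scaffold TJP1 (133 CPM). Of 17 factors that maintain the epithelial state 10 averaged below 1 CPM, and GRHL2, OVOL2, ELF5 and EHF were at 0 in each of the 8 libraries, while KLF5 averaged 37.0 CPM. Of the 7 factors tested, 0 were called in each comparison with GFP by edgeR, DESeq2 or limma-voom, with 2, 1 and 1 at an unadjusted p below 0.05 in R175H, R248Q and R273H. In the same order, 6.39%, 4.88% and 0.757% of all tested genes rose by edgeR, and 4.59%, 1.44% and 0.250% fell. Among the 14 tested epithelial markers 3 rose in R175H and 0 fell by edgeR (6.39% and 4.59% of all tested genes), with 6 at an unadjusted p below 0.05, 4 called by limma-voom and 0 by DESeq2. CLDN7, a tight junction claudin, went from 8.63 and 8.20 CPM in GFP to 13.6 and 12.9 in R175H, a rise of 0.65 ± 0.16 (adjusted p = 0.015, edgeR). DSC2, a desmosomal cadherin, rose by 0.37 ± 0.10 (adjusted p = 0.027, edgeR), and by 0.16 (adjusted p = 0.37) after length correction. The keratin KRT8 went the other way in R175H, from 13 and 10 counts in GFP to the floor of 3 counts in both libraries. That difference was -1.65 ± 0.63 and was not called (adjusted p = 0.10, edgeR). Against R175H, KRT8 was higher in R248Q by 2.97 ± 0.49 and in R273H by 2.25 ± 0.55 (adjusted p = 0.0014 and 0.032, edgeR). Without R175H replicate 1 both calls were lost, at 0.61 for CLDN7 and 0.34 for DSC2 (adjusted p = 0.11 and 0.15, edgeR). Without R175H replicate 2 they were lost too, at 0.69 and 0.40 (adjusted p = 0.079 and 0.10, edgeR). KRT8 rose in R248Q, from 1.34 and 1.11 CPM in GFP to 2.81 and 3.34, by 1.32 ± 0.35 (adjusted p = 0.036, edgeR), and this call was lost without GFP replicate 1 (1.46, adjusted p = 0.060) or any 1 library of R175H or R248Q (1.19 to 1.44, adjusted p up to 0.24).

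**Figure D5:**
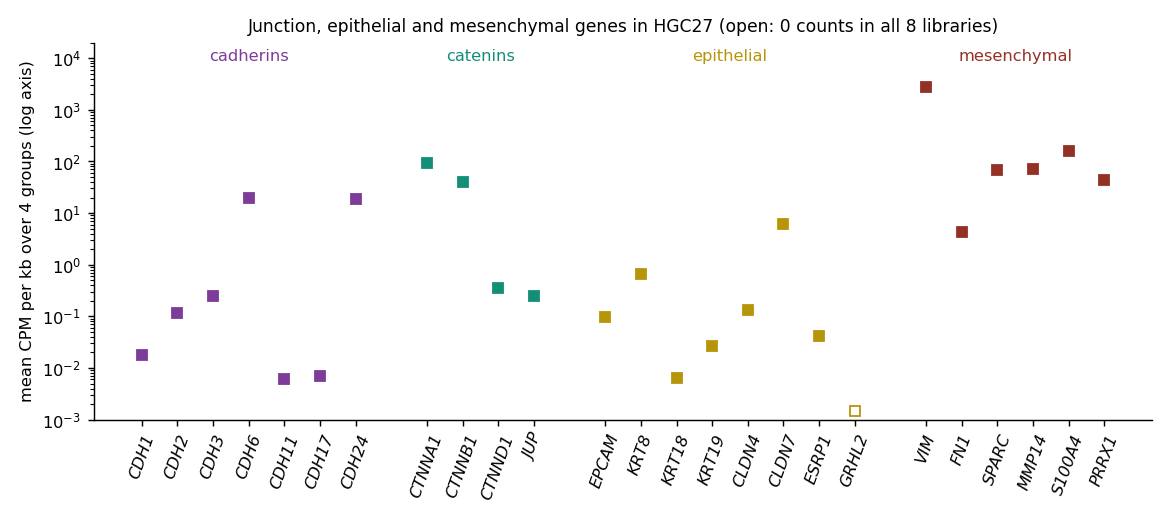
Mean TMM-scaled CPM per kilobase over the 4 groups, on a log axis, for cadherins, catenins, epithelial genes and mesenchymal genes, with an open symbol for 0 counts. The genes drawn were picked from the lists partly after their levels were seen. CDH6 and CDH24 lie near 19, CDH1 and CDH2 below 1, and VIM at 2720.0.

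Of 19 other mesenchymal markers tested, 2 rose and 2 fell in R175H, where 6.39% of all tested genes rose and 4.59% fell. In R248Q 0 rose and 2 fell (4.88% and 1.44% of all tested genes), and in R273H 1 rose and 0 fell (0.757% and 0.250%). AXL, a receptor tyrosine kinase, went from 30.2 and 32.0 CPM in GFP to 45.3 and 41.5 in R175H, a rise of 0.47 ± 0.09 (adjusted p = 0.0029, edgeR). MMP14, a membrane-bound matrix metalloproteinase, rose by 0.24 ± 0.05 in R175H (adjusted p = 0.010, edgeR). ENG, the TGF-beta co-receptor endoglin, fell by -0.31 ± 0.07 in R175H (adjusted p = 0.0094, edgeR). Without R175H replicate 1 these were 0.42, 0.26 and -0.27, and none of the 3 was called (adjusted p = 0.053, 0.070 and 0.12, edgeR). Without R175H replicate 2, MMP14 was 0.23 and not called (adjusted p = 0.099, edgeR). CD44, a hyaluronan receptor, stood at 81.1 and 84.3 CPM in GFP and 65.4 and 66.1 in R248Q, a fall of -0.33 ± 0.07 (adjusted p = 0.0086, edgeR), lost without R248Q replicate 1 or 2 (-0.32 and -0.33, adjusted p = 0.12 and 0.10). The 1 gene that rose in R273H was PDGFRB, by 0.76 (adjusted p = 0.036, edgeR), named after its value was seen, and DESeq2 called 0 of the list there.

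Among 15 other tested EMT transcription factors 3 rose and 0 fell in R175H (6.39% and 4.59% of all tested genes) and 1 rose in R248Q (4.88%). In R273H 0 were called by edgeR, DESeq2 or limma-voom, with 2 at an unadjusted p below 0.05. By edgeR 0.757% of all tested genes rose in R273H and 0.250% fell. TCF12, an E protein that pairs with TWIST factors, was at 229 and 285 CPM in GFP, 353 and 355 with R175H, 340 and 333 with R248Q, and 312 and 310 with R273H. All 6 mutant libraries were above both GFP libraries, and GFP replicate 1 was the lowest. It rose by 0.46 ± 0.08 in R175H and 0.39 ± 0.08 in R248Q (adjusted p = 0.0011 and 0.0051, edgeR). Without GFP replicate 1 these were 0.31 and 0.24, and without GFP replicate 2 they were 0.62 and 0.55. The R248Q call was lost without R248Q replicate 1 (0.38, adjusted p = 0.087) or 2 (0.41, adjusted p = 0.059). SOX4 rose by 0.30 ± 0.07 in R175H (adjusted p = 0.014, edgeR), a call lost without R175H replicate 1 (0.26, adjusted p = 0.15) or 2 (0.34, adjusted p = 0.056). TCF3, the other main E protein, was at 191 CPM per kilobase and was not called against GFP.

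Of 21 tested cofactors and turnover genes of the EMT factors, 1 was called in R175H and in R248Q. Of all tested genes, 6.39% rose and 4.59% fell in R175H, and 4.88% rose and 1.44% fell in R248Q. The called gene was SIN3A, a scaffold of histone deacetylase complexes. It rose by 0.36 ± 0.07 and 0.33 ± 0.07 (adjusted p = 0.0041 and 0.0087, edgeR). Its R175H call was lost without R175H replicate 1 (0.33, adjusted p = 0.070), and its R248Q call without R248Q replicate 1 (0.30, adjusted p = 0.14) or 2 (0.37, adjusted p = 0.057). After length correction the R248Q value was 0.18 and still called (adjusted p = 0.032), and with GFP replicate 1 also left out it was 0.18 and not called (adjusted p = 0.067). In the TGF-beta pathway, the main extracellular inducer of EMT, 3 of 14 tested genes rose and 1 fell in R175H (6.39% and 4.59% of all tested genes), and 2 rose in R248Q (4.88%). DESeq2 called 1 in each. LTBP1, which holds latent TGF-beta in the matrix, rose by 0.40 ± 0.06 in R175H and 0.26 ± 0.06 in R248Q (adjusted p = 0.00063 and 0.016, edgeR). The R248Q value was 0.18 without GFP replicate 1, and it lost its call without R248Q replicate 1 (0.24, adjusted p = 0.20) or 2 (0.29, adjusted p = 0.10). It was 0.13 after length correction (adjusted p = 0.043), and 0.13 with GFP replicate 1 also left out (adjusted p = 0.054). The receptor gene TGFBR2 was at 1 to 4 counts in each library. Among 5 other tested intermediate filament genes 1 was called in R248Q, where 4.88% of all tested genes rose and 1.44% fell. SYNM (synemin) rose there by 0.46 ± 0.09 (adjusted p = 0.0060, edgeR). It was 0.29 without GFP replicate 1 and 0.63 without GFP replicate 2, and lost its call without R248Q replicate 2 (0.42, adjusted p = 0.10). It was 0.28 after length correction (adjusted p = 0.0087), and 0.20 with GFP replicate 1 also left out (adjusted p = 0.092).

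The median log2 difference in R175H was 0.14 for the other EMT factors, 0.19 for epithelial markers, 0.02 for other mesenchymal markers, -0.15 for other cadherins and 0.10 for the TGF-beta genes, beside 0.01 for all tested genes.

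Markers of gastric differentiation did not reach testable levels: 0 of 16 in the table passed the filter and 11 had no count in any library. Of 12 blood cell markers 9 averaged below 1 CPM, with CD3E and HBB at 0, and their summed level was 13.5 to 18.3 CPM in GFP, 13.7 to 14.9 in R175H, 15.2 to 15.8 in R248Q and 15.7 to 17.0 in R273H. Most of that sum was HBA1, at 66 to 145 counts. Of 10 endothelial markers 8 averaged below 1 CPM, with CDH5 and KDR at 0, and their sum was 3.48 to 5.04 CPM over the 8 libraries.

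The genes whose pattern over the 8 libraries was closest to each called member were found by the root mean square difference of centred log2 CPM among 10338 genes of at least 5 CPM. For TWIST1 they were MTHFD2 (0.038), RIN1 (0.042) and SHMT2 (0.045). MTHFD2 and SHMT2 encode mitochondrial enzymes of one-carbon metabolism. For THY1 they were NOP16 (0.056), DNAJB1 (0.058) and HSPA5 (0.066), of which the last 2 encode chaperones. For VIM they were POT1 (0.017), PTPN2 (0.019) and SNUPN (0.024), and for ZEB2 they were RBL1 (0.035), ZZZ3 (0.044) and SLC30A1 (0.045). The SD of each member's own log2 values was 0.19 for TWIST1, 0.23 for THY1, 0.11 for VIM and 0.18 for ZEB2. These are descriptions over 8 libraries that share 4 groups, given with no test.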

How the data were processed

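The authors' deposited table gives raw read counts for each gene symbol in the 8 libraries. Libraries were made with a Kapa mRNA kit, per the labels' protocols, and reads were handled with bcl2fastq and STAR 2.5 on hg19, per the submitters' processing notes. How reads were counted, with which annotation and with or without strand, is not given in the sources used here.

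The main test was edgeR 4.0.16 in R 4.3.3. Genes were kept by filterByExpr (counts of 10, total of 15), TMM factors were 0.989 to 1.01, and glmQLFit took a mean per group over all 8 libraries. The fit left 4 residual degrees of freedom, with a median of 11.9 from the prior, and the biological coefficient of variation was 4.51%. P-values were adjusted over 13213 genes by Benjamini-Hochberg. SE is the absolute log2 difference over the square root of F. The code was tested on simulated data. Alternatives were DESeq2 1.42.0, limma 3.58.1 (voom), other scalings and filters, a replicate block, a length correction, fits of only the 2 groups compared, and each library left out. Lengths came from GENCODE 29 by symbol, for 93.3% of tested genes.

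The members and lists were chosen with earlier results of these data known. All 10 members are named. From each of 12 context lists up to 4 genes are named, those with the lowest p in the test of any group difference, if called there; other list genes given for their levels or counts were chosen after their values were seen. For each called member the 3 nearest patterns are named. The overexpressed gene's own counts are not reported here.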

Additional observations from a re-analysis of the deposited data

Results flagged for a closer look

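Of the tested members, 3 differed between mutants, which is a difference between their effects against the same GFP libraries. The tests are edgeR's quasi-likelihood contrasts between mutant groups, adjusted over all genes. TWIST1 was lower in R248Q than in R175H (-0.39, log2) and lower in R273H than in R175H (-0.27). VIM was lower in R248Q (-0.28) and in R273H (-0.17) than in R175H. THY1 was higher in R273H than in R175H (0.44). The R273H calls against R175H were kept in 10 of 17 alternatives for TWIST1, 9 of 18 for VIM and 13 of 17 for THY1.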

How the results depend on the processing

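Over all 13213 tested genes, 1451, 835, 133, 947, 479 and 20 were called in the 6 comparisons, in the order that follows. The numbers of called members were 4, 1, 0, 2, 3 and 0 for R175H, R248Q and R273H against GFP, R248Q and R273H against R175H, and R273H against R248Q. With 1 library left out, where a group's lone library is assumed to vary like the others, they ranged from 2 to 5, 0 to 2, 0 to 1, 1 to 3, 0 to 4 and 0 to 2. The test of any difference then gave 2 to 5 against 3. DESeq2 called 0 for R248Q against GFP, and 482 over all genes. Fits of only the 2 groups compared called 2 for R175H against GFP, 0 for R248Q against GFP and 2 for R273H against R248Q. Over all genes these fits called 538, 391 and 816. Length correction gave 1 for R273H against GFP and 4 for R248Q against R175H, and 306 and 1562 over all genes. Length correction without GFP replicate 1 gave 2 for R248Q against GFP, 1 for R273H against GFP and 4 for R248Q against R175H. The number of genes called over the whole table also changed with each library left out, so the member counts there have no fixed share to be set against. The causes were not tested.

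Deviations of same-numbered libraries correlated at -0.09 to 0.05. These values showed no pairing by replicate number, but with 2 libraries in a group they cannot exclude it. With a replicate block, 3, 0, 0, 2, 1 and 0 members were called in the 6 comparisons and 3 in the test of any difference. Over all genes the block gave 1044, 538, 58, 637, 318 and 4, and 917 in the test of any difference.

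Differences that changed sign were small, and none had been called. With library size alone, ZEB1 in R248Q against R175H was 0.0019. With length correction, SNAI1 was 0.046 in R248Q and 0.045 in R273H against GFP, and -0.0019 in R273H against R248Q. ZEB2 was then -0.10 in R248Q and -0.045 in R273H against GFP, and 0.055 in R273H against R248Q, and VIM was 0.00013 in R248Q against GFP. Length correction without GFP replicate 1 gave ZEB2 as -0.14, -0.086 and 0.055 in these 3 comparisons, and SNAI1 as -0.0022 in R273H against R248Q.

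With 1 library left out, the ranges that crossed 0 were as follows. Against GFP, TWIST1 in R248Q ranged from -0.011 to 0.10, SNAI1 in R248Q from -0.13 to 0.028, SNAI1 in R273H from -0.045 to 0.033 and ZEB2 in R273H from -0.051 to 0.27. Against R175H, SNAI2 in R248Q ranged from -0.0082 to 0.18, ZEB1 in R248Q from -0.074 to 0.047 and SNAI2 in R273H from -0.048 to 0.039. For R273H against R248Q, SNAI1 ranged from -0.034 to 0.12 and SNAI2 from -0.18 to 0.0061.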
